A study of Macaca fascicularis with 64 samples.

Results

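Expression of 8 genes of the incretin and glucagon signalling route was described in single islet cells of cynomolgus monkeys (Macaca fascicularis). The genes were the receptors GLP1R, GIPR and GCGR, the adenylyl cyclases ADCY5, ADCY6 and ADCY8, the cAMP sensor RAPGEF4 and the phosphodiesterase PDE3B. They were chosen by name from the 21041 macaque genes of the deposited UMI count tables (a UMI marks 1 captured transcript molecule), and all 8 were found. Cells came from 8 young monkeys aged 4 to 6 years and 8 old monkeys aged 18 to 21 years, each group holding 4 females and 4 males, and none had been treated. Islets were isolated from the tail end of the pancreas, single cells were picked by pipette, and each monkey gave 4 libraries. One monkey was processed per day, so that the day and the monkey cannot be told apart.

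GLP-1 and GIP are the incretins, gut hormones that raise insulin secretion after a meal, and glucagon is the hormone of the α-cell. Their receptors belong to class B of the G protein-coupled receptors and act through the stimulatory G protein on adenylyl cyclase, which makes cAMP. In islet cells cAMP acts through protein kinase A and through the exchange factor EPAC2, and it is broken down by phosphodiesterases. Each member of the route is therefore a step between a hormone outside the cell and hormone secretion.

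Of 6141 deposited cells, 5908 had over 800 genes and over 10000 UMIs, and each was assigned to the type of its highest hormone count, namely glucagon (GCG) for α, insulin (INS) for β, somatostatin (SST) for δ and pancreatic polypeptide (PPY) for PP. This gave 4503 α-cells, 1219 β-cells, 112 δ-cells and 74 PP-cells. UMIs were summed per monkey and type where at least 5 cells were present, so that all 16 monkeys entered with their α- and β-cells, 11 with δ- and 6 with PP-cells. Depth ran from 20719761 to 34053080 UMIs per monkey, and the median depth of a cell was 64894 UMIs in α-, 74425 in β-, 43776 in δ- and 45772.5 in PP-cells. Levels below are CPM (UMIs of the gene scaled to a common library size) of these sums, scaled to be comparable between types and ages. Levels of different genes were not compared.

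The other markers followed the hormone labels, but hormone transcripts were present in every type. SLC2A2, the β-cell glucose transporter, had 687.6 CPM in pooled β-cells and 9.26 CPM in α-cells, and HHEX, a δ-cell transcription factor, had 386.1 CPM in δ-cells and at most 2.10 CPM elsewhere. GCG in β-cells stood at 25.2% of its α-cell level and INS in α-cells at 11.3% of its β-cell level. The highest hormone was at least 4 times the next in 93.4% of α-cells but in 31.5% of β-, 35.7% of δ- and 10.8% of PP-cells. Markers of acinar, ductal, immune, stellate or endothelial cells were high in 62 cells, 51 of them labelled α, and these cells were kept. Young male 3 had the highest summed level of 6 immune markers in α-cells (1873 CPM, next highest monkey 259.8), β-cells (382.9, next 105.2) and δ-cells (292.3, next 164.9) and the shallowest cells of the 16 monkeys.

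The 8 genes differed widely in how many cells held a transcript. RAPGEF4 was counted in 4151 of the 5908 cells, ADCY6 in 2822, PDE3B in 2384, GCGR in 696, GIPR in 560 and GLP1R in 47. ADCY5 was counted in 6 cells and ADCY8 in 4. Of the 8 genes, 5 passed the filter on low counts of the cell type fit, namely GIPR, GCGR, ADCY6, RAPGEF4 and PDE3B.

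**Figure D1:**
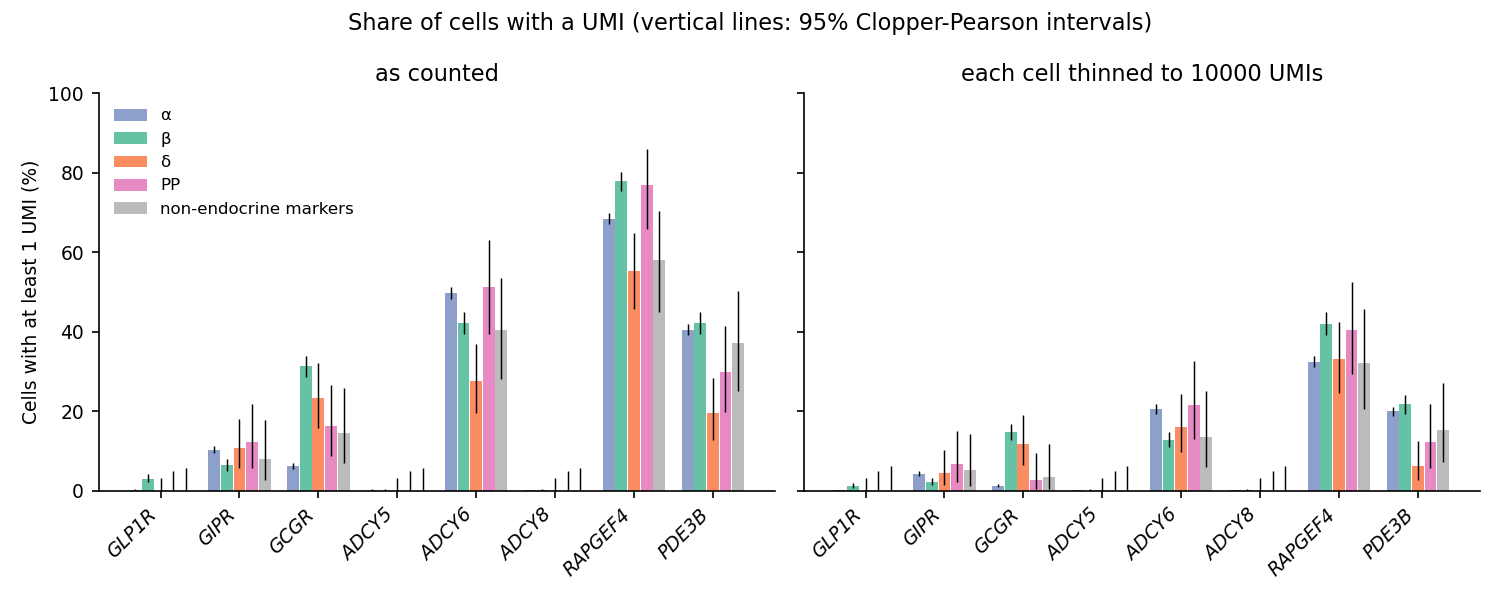
Share of cells with at least 1 UMI of each gene (y axis, percent) in α-, β-, δ- and PP-cells, as counted and after every cell was thinned to 10000 UMIs. Vertical lines are exact 95% Clopper-Pearson intervals, which cover counting error only, and the GCGR share rises from 6.15% of α-cells to 31.3% of β-cells.

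GLP1R, the receptor of GLP-1, was a rare transcript whose counts lay almost wholly in β-cells. It had 180 UMIs in 36 of 1219 β-cells (2.95%, exact 95% interval 2.08 to 4.07%), and 19 UMIs in 11 of 4503 α-cells (0.244%). No UMI was found in 112 δ-cells, which allows a share of cells with a UMI of up to 2.68%, in 74 PP-cells, which allows up to 4.05%, or in the 62 cells with non-endocrine markers, which allows up to 4.84%. With all cells thinned to 10000 UMIs the share was 1.07% in β- and 0.0448% in α-cells. The β-cell counts were uneven, since 1 cell held 37 of the 180 UMIs and 4 cells held at least as many as all the others.

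Per monkey, GLP1R in β-cells had a lowest level of 0 CPM, a median of 0.769 and a highest of 6.37, and 4 of 16 monkeys, all young, had none. In α-cells the lowest was 0, the median 0.0195 and the highest 0.613, with 8 monkeys at 0, so that the ranges overlapped. The mean, on plain CPM, was 1.62 ± 2.13 in β-cells and 0.0697 ± 0.142 in α-cells (SD, n = 16), a difference of 1.55 CPM, and the β-cell value was higher in 11 of 16 monkeys and equal in 3. A two-sided exact sign-flip permutation test over the 16 monkeys gave p = 0.00147. Among cells with a clear highest hormone only 11 monkeys could be compared, the difference was 0.917 CPM, and the exact permutation p was 0.0781. Of the 19 α-cell UMIs 1 cell held 9, and without old female 2, the monkey highest in α-cells, the α-cell mean was 0.0355 CPM. How much of the α-cell signal was carried over from β-cells was not tested.

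GIPR, the receptor of GIP, was present in every type at a low level. Per monkey its lowest, median and highest levels were 3.07, 7.04 and 14.7 CPM in α-cells and 0, 2.55 and 25.0 CPM in β-cells. In δ-cells they were 0, 1.81 and 104.3 CPM over 11 monkeys, where a single cell of young male 3 held 40 of the 71 UMIs. In the 6 monkeys with PP-cells GIPR stood at 33.2 CPM in old male 4, 28.8 in old female 2, 8.43 in young male 1, 4.18 in old female 1, 2.11 in young male 4 and 0 in old male 2. The α-cells thus had the narrowest spread, and the ranges of all 4 types overlapped. An α-cell sum rested on 178 to 362 cells, a β-cell sum on 11 to 194, a δ-cell sum on 5 to 14 and a PP-cell sum on 5 to 33. The part of cell number in the spread was not tested. Young male 3 was the highest monkey in α-, β- and δ-cells alike, and the part of its immune markers and low depth in this was not tested.

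GIPR was lower in β- than in α-cells, by 1.51 on the log2 scale (SE 0.48, 2.84-fold, adjusted p = 0.0138, edgeR quasi-likelihood test with Benjamini-Hochberg adjustment over 12899 genes), and the β-cell level was the lower in 14 of 16 monkeys. With GCGR, 2 of the 5 tested genes were called between β- and α-cells, where 25.2% of all genes were. The call on GIPR was lost when monkeys were not kept as a block (log2 difference -0.88, adjusted p = 0.250). GIPR was higher in PP- than in β-cells by 2.61 (SE 0.78, adjusted p = 0.0141), in 4 of 6 monkeys, and this call was lost without old female 2 (1.79, adjusted p = 0.156), without old male 4 (1.93, adjusted p = 0.102) or without the block (1.70, adjusted p = 0.0719). The differences of δ- from α-cells (-0.52, 95% interval -1.76 to 0.72), of δ- from β-cells (0.98, -0.27 to 2.24) and of PP- from α-cells (1.10, -0.37 to 2.57) did not pass. By share of cells, GIPR was counted in 10.3% of α-, 6.32% of β-, 10.7% of δ- and 12.2% of PP-cells, against 8.07% (exact 95% interval 2.67 to 17.8%) of the cells with non-endocrine markers, whose median depth was 52842 UMIs. None of these shares lay above that interval, which pools cells. In the 6 monkeys with at least 5 such cells the share ran from 0 to 33.3%. Of the 62 cells, 51 were also counted as α-cells, and doublets were not removed. Free transcript therefore cannot be told apart from expression by share alone.

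**Figure D2:**
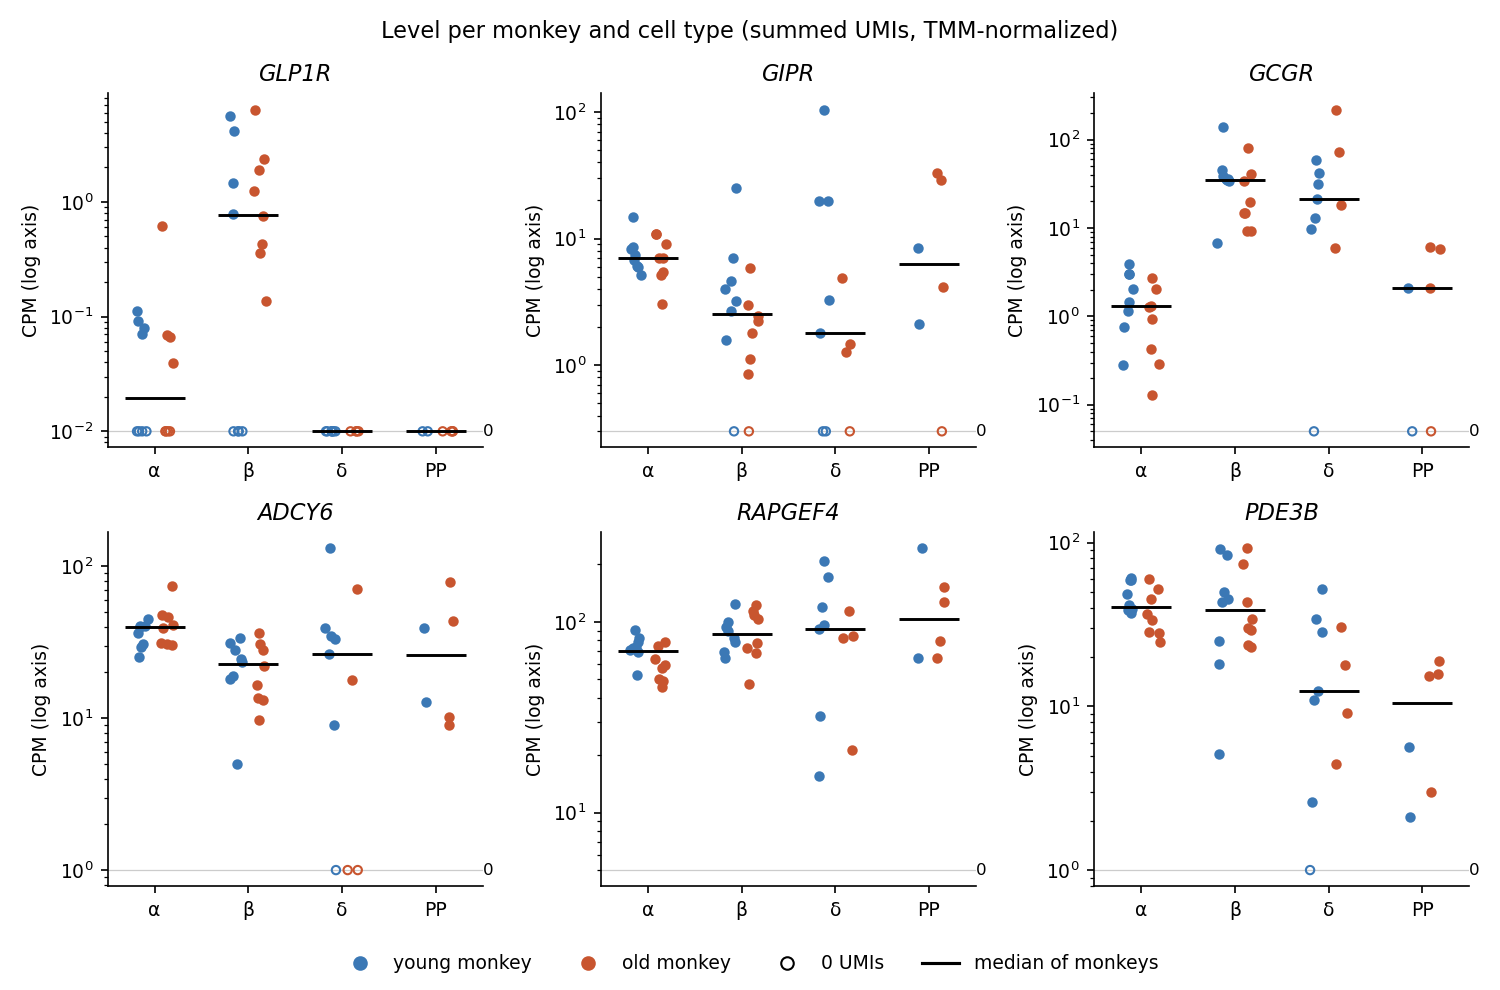
Level of GLP1R, GIPR, GCGR, ADCY6, RAPGEF4 and PDE3B (log y axis, CPM of summed UMIs, TMM-scaled) in α-, β-, δ- and PP-cells. Each monkey is 1 point, with young and old shown apart, and open points mark 0 UMIs. Horizontal lines are the median of all monkeys with that type. GCGR in β-cells (6.68 to 137.4 CPM) lies wholly above its α-cell values (0.128 to 3.94 CPM), whereas RAPGEF4 overlaps in all 4 types.

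GCGR, the glucagon receptor, gave the largest difference between types among these genes and was high in β- and δ-cells and low in α- and PP-cells. Its lowest, median and highest levels were 0.128, 1.30 and 3.94 CPM in α-cells and 6.68, 34.7 and 137.4 CPM in β-cells over 16 monkeys. In PP-cells the 6 values were 6.03, 5.77, 2.11, 2.09, 0 and 0 CPM. Every β-cell value lay above every α-cell and every PP-cell value. In the 4 old monkeys with δ-cells GCGR stood at 218.9, 72.2, 18.2 and 5.90 CPM, and in the 7 young monkeys it ran from 0 to 58.3 CPM with a median of 21.5. The δ-cell values therefore covered the range of both the low and the high types, and the highest of them, in old female 2, rested on 135 UMIs in 11 cells.

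GCGR was 23.8-fold higher in β- than in α-cells (log2 difference 4.57, SE 0.43, adjusted p = 7.918e-13), in 16 of 16 monkeys. In δ-cells it was 20.6-fold higher than in α-cells (4.37, SE 0.52, adjusted p = 1.532e-09), in 10 of 11 monkeys. With PDE3B, 2 of the 5 tested genes were called between δ- and α-cells, against 23.2% of all genes. δ- and β-cells differed by -0.21 (95% interval -1.14 to 0.73), which did not pass. PP-cells lay 19.5-fold below β-cells (-4.28, SE 0.83, adjusted p = 0.000136), in 6 of 6 monkeys, and 16.9-fold below δ-cells (-4.08, SE 0.84, adjusted p = 0.000582), in 5 of 5. The PP- and α-cell levels differed by 0.29 (95% interval -1.31 to 1.89). When at least 10 cells were asked of each monkey and type, both PP-cell differences kept their size (-4.25 and -4.07) but no longer passed (adjusted p = 0.14 and 0.16).

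By cells, GCGR was counted in 381 of 1219 β-cells (31.3%), 26 of 112 δ-cells (23.2%), 12 of 74 PP-cells (16.2%) and 277 of 4503 α-cells (6.15%). After thinning the shares were 14.7%, 11.6%, 2.70% and 1.21%. The cells with non-endocrine markers held it at 14.5% (9 of 62, exact 95% interval 6.86 to 25.8%) as counted and 3.39% thinned (0.413 to 11.7%). The β-cell shares lay above these intervals and the α-, δ- and PP-cell shares did not, and the part of free transcript in them was not tested. The intervals pool cells, and in the 6 monkeys with at least 5 such cells the share as counted ran from 0 to 66.7%. A β-cell with the transcript held a median of 5 UMIs and an α-cell a median of 1. The pooled α-cell level was 4.97% of the β-cell level, beside 11.3% for INS and 1.82% for IAPP, a β-cell peptide hormone. Among the 16 monkeys the share of β-cells with GCGR ran from 6.82% to 71.4%, with a median of 27.2%.

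ADCY5 and ADCY8 were too rare for a comparison. ADCY5, a cyclase linked to glucose response in human islets, had 25 UMIs in 6 α-cells of 3 monkeys and none in β-cells, where 0 of 1219 allows a share of cells with a UMI of up to 0.246%. ADCY8, a cyclase activated by calcium and calmodulin, had 4 UMIs in 3 α-cells and 1 β-cell. At this depth no difference between types or ages was detectable for either gene.

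ADCY6, a cyclase inhibited by calcium, was counted in 49.7% of α-, 42.2% of β-, 27.7% of δ- and 51.4% of PP-cells. Its lowest, median and highest levels per monkey were 25.3, 39.6 and 74.0 CPM in α-cells and 5.01, 22.8 and 36.5 CPM in β-cells. In δ-cells they were 0, 26.3 and 131.1 CPM, and in PP-cells 9.05, 26.0 and 78.6 CPM. The ranges of α- and β-cells overlapped, yet within each of the 16 monkeys the β-cell level was the lower. The difference of -0.91 (SE 0.36) did not pass the threshold (adjusted p = 0.0590). It passed with DESeq2 (adjusted p = 0.0251), with RLE scaling (0.0474), after thinning (0.00302), with at least 10 cells per sum (0.00607) and without young male 3 (0.0367). No other pair of types passed for ADCY6.

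RAPGEF4 encodes EPAC2, the exchange factor by which cAMP acts on secretory granules without protein kinase A, and it was counted in more cells than any other of the 8 genes. Its lowest, median and highest levels were 45.5, 70.2 and 91.1 CPM in α-cells and 47.4, 86.0 and 123.6 CPM in β-cells. In δ-cells they were 15.7, 91.6 and 209.1 CPM, and in PP-cells 64.6, 103.0 and 243.0 CPM. No pair of types passed the test. β-Cells stood 0.38 above α-cells (95% interval -0.04 to 0.81), in 14 of 16 monkeys, and PP-cells 0.85 above α-cells (0.21 to 1.5, adjusted p = 0.0993), in 5 of 6. The last difference passed with DESeq2 (0.94, adjusted p = 0.0246) and without the monkey block (0.86, adjusted p = 0.0465). RAPGEF4 was counted in 68.5% of α-, 77.9% of β-, 55.4% of δ- and 77.0% of PP-cells.

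PDE3B, the phosphodiesterase that insulin activates to lower cAMP, was lower in δ- and PP-cells than in α- and β-cells. Its lowest, median and highest levels were 24.6, 40.4 and 60.5 CPM in α-cells and 5.10, 39.0 and 92.3 CPM in β-cells. In δ-cells they were 0, 12.5 and 51.9 CPM. The 6 PP-cell values were 18.8, 15.9, 15.3, 5.62, 3.02 and 2.11 CPM, all below the lowest α-cell value. The β minus α difference was -0.09 on the log2 scale (95% interval -0.73 to 0.55), with the β-cell level higher in 9 of 16 monkeys.

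δ-Cells held 2.74-fold less PDE3B than α-cells (log2 difference -1.45, SE 0.43, adjusted p = 0.0105), in 10 of 11 monkeys, and 2.57-fold less than β-cells (-1.36, SE 0.43, adjusted p = 0.0194), in 9 of 11. PDE3B was the 1 gene of the 5 called between δ- and β-cells, against 19.8% of all genes. PP-cells held 4.26-fold less than α-cells (-2.09, SE 0.59, adjusted p = 0.0217) and 4.00-fold less than β-cells (-2.0, SE 0.58, adjusted p = 0.0121), in 6 of 6 monkeys each. It was the 1 of 5 called between PP- and α-cells, against 6.5% of all genes, and with GIPR and GCGR made 3 of 5 called between PP- and β-cells, against 17.4%. Between PP- and δ-cells GCGR was the 1 of 5, against 10.5%. All 4 PDE3B calls were lost with at least 10 cells per sum (adjusted p from 0.182 to 0.797), and both PP-cell calls after thinning (adjusted p = 0.139 and 0.0868). The δ-β difference was lost with RLE scaling (-1.14, adjusted p = 0.0616), without old female 1 (-1.11, adjusted p = 0.0588) and without young male 2 (-1.21, adjusted p = 0.0574). The PP-α difference was lost without old male 4 (-1.92, adjusted p = 0.0510), young male 1 (-2.02, adjusted p = 0.0527) or young male 4 (-1.88, adjusted p = 0.0705). Old female 1 also carried most of the stellate marker counts in PP-cells (965.9 CPM, next highest monkey 28.0), and their part in the result was not tested.

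**Figure D3:**
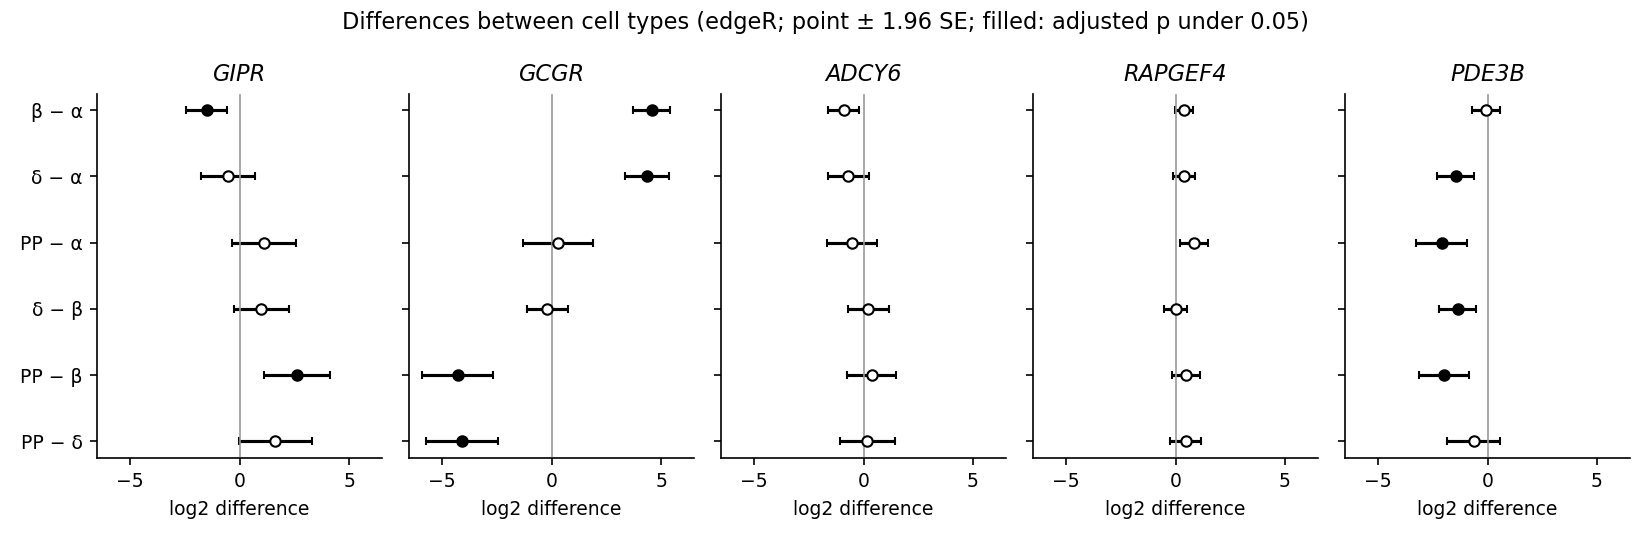
Difference between cell types (x axis, log2 fold change with its 95% interval) for the 5 genes that passed the filter, in each pair of types. GCGR stands apart at 4.57 for β- against α-cells, and the interval of GCGR for δ- against β-cells spans 0.

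Set against the mean of the other 3 types, α-cells were lower in GCGR (-3.08, adjusted p = 1.308e-06) and higher in PDE3B (1.21, adjusted p = 0.00405), 2 of 5 genes against 21.2% of all genes. β-Cells were higher in GCGR (3.02, adjusted p = 2.889e-08) and PDE3B (1.09, adjusted p = 0.00767) and lower in GIPR (-1.70, adjusted p = 0.00663), 3 of 5 against 26.5%. δ-Cells were higher in GCGR (2.75, adjusted p = 1.007e-05), 1 of 5 against 15.6%. PP-cells were lower in GCGR (-2.69, adjusted p = 0.0222), 1 of 5 against 8.46%, and that call was lost without old female 2 (adjusted p = 0.0522), young male 1 (0.0612) or young male 4 (0.0506), after thinning (0.0560), with at least 10 cells per sum (0.479) and without the monkey block (0.0569). RAPGEF4 in α-cells missed the threshold narrowly (-0.54, adjusted p = 0.0508), and it passed in 10 of the alternatives, among them DESeq2 (adjusted p = 0.00737) and RLE scaling (0.0199). It did not pass in 5 of 11 other settings or in 12 of 16 fits with a monkey left out (adjusted p up to 0.475 over all alternatives).

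Most β-cells with GCGR held no UMI of GIPR or GLP1R, and the cells that held a transcript were also the deeper ones. Of 381 β-cells with GCGR, 8.40% also held GIPR, against 5.41% of the 832 without, and their median depths were 87779 and 68861.5 UMIs. After thinning to 10000 UMIs these shares were 3.37% and 1.93%. GLP1R was found with GCGR in 14 β-cells, 3.68% of the cells with GCGR and 2.64% of those without. These shares were not tested, because cells of 1 monkey are not replicates.

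Across the 49 sums of monkey and type, which share monkeys and libraries, the genes most like GCGR in log2 level were SORL1 (Pearson r = 0.80), RASSF6 (0.77) and HADH (0.77), a mitochondrial enzyme of fatty acid oxidation. SORL1 had a mean of 409.8 CPM in β-cells and 16.3 in α-cells, and HADH 996.6 and 55.7. The closest to GIPR were ENSMFAG00000000632 (0.69), MBOAT4 (0.67), the ghrelin acylating enzyme, and PLEKHH3 (0.66). IFT74 (0.85) was closest to ADCY6, SEL1L3 (0.65) to RAPGEF4 and ENSMFAG00000001234 (0.81) to PDE3B. These correlations are descriptions and were not tested.

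The rest of the route was described through 9 lists with 110 gene symbols, of which 101 were in the tables and 81 were tested. Between β- and α-cells, 38 of the 81 were called (46.9%, against 25.2% of all genes), 5 higher in β and 33 lower, and the median log2 difference was -0.69 beside -0.11 over all genes tested. Between δ- and α-cells 7 were higher in δ and 27 lower (42.0% called, against 23.2%), with a median of -0.57 beside -0.47. Between PP- and β-cells 20 were higher in PP and 6 lower (32.1% called, against 17.4%), with a median of 0.61 beside -0.26. Of all genes called in these pairs, 34.7% were higher in β than in α and 18.9% higher in δ than in α. For PP against β the share higher in PP was 38.5%. RLE scaling moved the median of all genes by up to 0.24 (δ against β), and by 0.21 for δ against α. Such a shift applies to listed and other genes alike, and the list medians under RLE scaling were not computed.

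Among the other receptors that act through the stimulatory G protein, 5 of 16 were tested. All 5 were called between δ- and α-cells, 2 higher in δ and 3 lower, against 23.2% of all genes, 4 between β- and α-cells against 25.2%, and 2 each between δ and β, PP and α, and PP and β, against 19.8%, 6.5% and 17.4%. ADORA2A, an adenosine receptor, had a mean of 62.8 CPM in α-, 6.14 in β-, 2.43 in δ- and 8.53 in PP-cells, and was lower in β- than in α-cells by 3.67 (SE 0.35, adjusted p = 7.28e-13). SCTR, the secretin receptor and a close relative of GCGR, was highest in δ-cells, with 78.5 CPM against 6.38 in α-, 14.7 in β- and 2.69 in PP-cells, a log2 difference of 3.95 from α (SE 0.53, adjusted p = 6.185e-08). VIPR1, a receptor of vasoactive intestinal peptide, was higher in PP- than in β-cells by 4.36 (SE 0.79, adjusted p = 5.324e-05). Of the genes that modify or switch off receptors, 4 of 8 tested were lower in β- than in α-cells and none was higher, against 25.2% of all genes called. RAMP2, which binds class B receptors, had 227.4 CPM in α- and 21.7 CPM in β-cells, a difference of -3.57 (SE 0.26, adjusted p = 8.819e-17), and the receptor kinase GRK6 had 223.3 and 98.0 CPM, a difference of -1.18 (adjusted p = 1.885e-10).

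Of 12 G protein subunits, 5 (41.7%, against 25.2% of all genes) were lower in β- than in α-cells and none higher, with GNAI1, an inhibitory α subunit, at -1.10 (SE 0.22, adjusted p = 6.135e-05). GNG4 stood lowest in δ-cells, with 126.2 CPM against 433.4 in α- and 546.3 in β-cells. Of the other 12 tested phosphodiesterases, 3 were higher and 3 lower in β- than in α-cells (50.0% called, against 25.2%). PDE1B, a phosphodiesterase driven by calmodulin, was highest in β-cells (13.2 CPM, log2 difference from α 2.48, adjusted p = 0.000158), and PDE1C was the lower there (-3.41, adjusted p = 8.182e-08). PDE4B was higher in δ- than in α-cells (59.5 against 1.29 CPM, 5.39, adjusted p = 4.22e-07), whereas PDE4D was lower there (-3.97, adjusted p = 1.506e-05), as PDE3B was. Of the list of other cyclases, 5 genes were tested, among them the cyclase-associated actin regulators CAP1 and CAP2, and 2 were lower in β- than in α-cells, against 25.2% of all genes called.

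Among 15 tested genes of protein kinase A and its anchors, 3 were higher and 1 was lower in δ- than in α-cells, a share of 26.7% near the 23.2% of all genes. The anchor AKAP12 had 166.2 CPM in δ- and 96.6 in PP-cells but 2.88 in α- and 1.17 in β-cells, a δ to α difference of 6.35 (SE 0.55, adjusted p = 8.177e-14). PKIB, a protein kinase A inhibitor, was lower in β- than in α-cells (-1.90, adjusted p = 2.165e-07) and reached 207.7 CPM in PP-cells. On the EPAC branch, 3 of 6 tested genes were called between β- and α-cells (50.0%, against 25.2% of all genes). The list median was 0.08 beside -0.11 over all genes. RAP1B, a small GTPase that EPAC2 switches on, was higher in β- than in α-cells (293.7 against 132.5 CPM, 1.09, adjusted p = 7.178e-07). The granule-docking gene RIMS2 (-1.02, adjusted p = 3.03e-05) and the phospholipase PLCE1 (-3.90, adjusted p = 2.328e-09) were lower.

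Of 16 CREB factors and cAMP-induced genes, 10 were lower in β- than in α-cells and none higher (62.5% called, against 25.2% of all genes), with a median of -1.33 beside -0.11. NR4A1, an early response gene, had 811.3 CPM in α-, 165.0 in β-, 281.9 in δ- and 895.5 in PP-cells (β minus α -2.28, SE 0.13, adjusted p = 2.053e-21). PPARGC1A, a co-activator that cAMP induces in liver, had a β minus α difference of -4.10 (adjusted p = 9.925e-09). Several of these genes also respond to handling of cells, and the part of the dissociation was not tested. In the list of ligands and their removal both tested genes were called lower in β- than in α-cells, against 25.2% of all genes called. NPY, which encodes neuropeptide Y, a peptide other than GLP-1, GIP and glucagon, was 1 of them, with a difference of -3.21 (adjusted p = 0.00011).

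Old and young monkeys were compared within each type, with sex as a covariate. None of the genes tested was called in any type. In α-cells 0 of 5 tested genes were called, against 0% of 12916 genes (862 with an unadjusted p under 0.05, 25 with DESeq2). In β-cells 0 of 5 were called against 0.0282% of 10628 genes (3 genes, 40 with DESeq2). In δ-cells 0 of 4 were called against 0% of 6484 genes (209 unadjusted, 3 with DESeq2) and in PP-cells 0 of 3 against 0.0457%. None of the pathway lists' genes was called either.

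RAPGEF4 in α-cells had the smallest unadjusted p of the members. Young monkeys ran from 52.5 to 91.1 CPM with a median of 73.3, and old monkeys from 45.5 to 78.4 with a median of 58.4. The groups overlapped, and the old minus young difference was -0.31 (SE 0.12, unadjusted p = 0.0203, adjusted p = 0.729). In β-cells RAPGEF4 was 87.8 ± 18.7 CPM in young and 89.6 ± 26.5 in old monkeys (SD, n = 8 each), a difference of 0.03 (95% interval -0.38 to 0.44). PDE3B in α-cells was 48.0 ± 10.2 CPM in young and 38.6 ± 12.6 in old monkeys (-0.32, -0.68 to 0.05), and in β-cells 45.3 ± 30.3 and 43.8 ± 25.6 (-0.05, -0.89 to 0.78). ADCY6 was 36.0 ± 6.71 CPM in young and 42.5 ± 14.4 in old α-cells (0.23, -0.13 to 0.59) and 22.9 ± 9.06 and 21.3 ± 9.60 in β-cells (-0.12, -0.83 to 0.59).

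Among the receptors, GCGR in β-cells ran from 6.68 to 137.4 CPM with a median of 36.2 in young monkeys and from 9.23 to 79.9 with a median of 17.3 in old ones. The old minus young difference was -0.74 (95% interval -1.66 to 0.19, adjusted p = 0.984), -0.28 without young female 3 and -1.29 without old male 4. In α-cells it was -0.85 (-2.05 to 0.35). GIPR in β-cells was 6.01 ± 7.96 CPM in young and 2.17 ± 1.78 in old monkeys, a difference of -1.14 (-2.53 to 0.24, adjusted p = 0.977) that was -0.59 without young male 3. In α-cells GIPR differed by -0.09 (-0.67 to 0.48). GLP1R in β-cells was 1.498 ± 2.18 CPM in young and 1.69 ± 2.04 in old monkeys, a difference of 0.192 CPM (two-sided exact permutation p = 0.874, n = 8 each). In δ-cells GCGR differed by 1.77 (-0.24 to 3.78), which turned to -0.25 without old female 2. With 2 young and 4 old monkeys, the PP-cell differences had intervals several log2 units wide, such as -3.31 to 6.77 for GIPR.

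**Figure D4:**
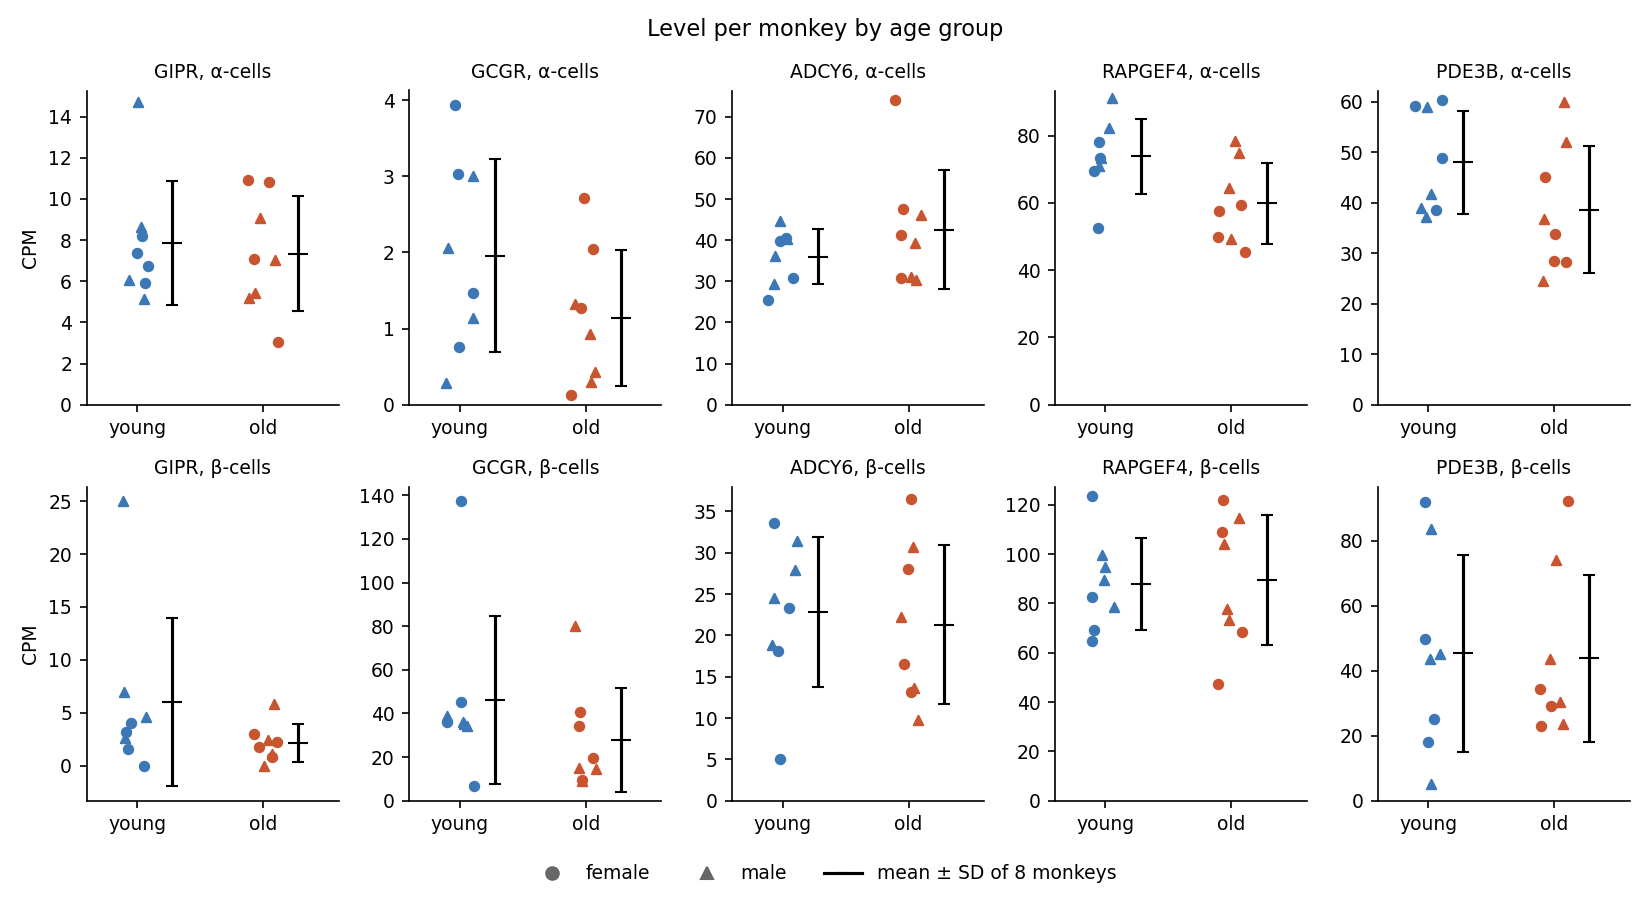
Level per monkey (y axis, CPM) of the genes in young and old α- and β-cells, with 1 point per monkey and mean ± SD. Young and old values overlap in every panel, as for RAPGEF4 in α-cells with 52.5 to 91.1 CPM in young and 45.5 to 78.4 CPM in old monkeys.

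The age difference was then compared between β- and α-cells and between the sexes. Between the types 0 of 6 tested genes were called against 0% of 13322 genes (789 with an unadjusted p under 0.05, 10 with DESeq2), with the largest difference in GIPR (-1.03, 95% interval -2.40 to 0.34). Between the sexes 0 of 5 were called in α-cells against 0.00707% of 14146 genes, and 0 of 6 in β-cells against 0% of 11693 genes (495 unadjusted, 2 with DESeq2). GIPR in β-cells again had the largest of these differences (-1.67, -4.46 to 1.12), and GLP1R in β-cells had the widest interval (-0.29, -4.02 to 3.44). Intervals of this width leave differences of several-fold undetected.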

How the data were processed

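Counts were the authors' deposited UMI counts per gene and cell, 1 table for each of 64 libraries, with no normalisation applied. Per the labels the libraries followed a modified SMART-seq2 protocol, and per the study's methods a modified STRT protocol. The submitters' processing notes name CASAVA 1.8 and TopHat2 2.0.12, and the study's methods give alignment to Macaca_fascicularis_5.0 with the Ensembl annotation and counting of unique UMIs per gene with htseq-count. The 95 spike-in rows were left out. Age and sex came from the series' key of individuals. The cell filter asked for more than 800 detected genes and more than 10000 UMIs. The study's further filter on mapping rate was not used here, and no doublet caller was run.

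The 8 genes and the pathway lists were chosen with earlier results of these data known. UMIs were summed per monkey and type with at least 5 cells and tested with edgeR 4.0.16 (TMM scaling, filterByExpr, robust quasi-likelihood fit) in R 4.3.3, with Benjamini-Hochberg adjustment over all genes and a threshold of 0.05. Types were compared with the monkey as a block and ages with sex as a covariate. GLP1R, below the filter, was tested with exact permutation tests. The scripts were tested on simulated data. From the lists, at most 3 genes per list and direction were eligible to be named, those with the largest called change and at least 10 CPM in a compared group, and some of these are described. Genes most like a member were the 3 with the highest Pearson correlation.

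Alternatives were DESeq2 1.42.0, RLE scaling, no filter, other cell and sum filters, hormone UMIs left out, thinning to 10000 UMIs, no block or covariate, and each monkey left out. Exact Clopper-Pearson 95% intervals and the limits that a count of 0 allows (3 counts) cover counting error only. From a sum alone, a lower level per cell cannot be told apart from fewer cells expressing the gene.

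Replicate numbers name different animals and were not used to pair the monkeys. Deviations of same-numbered monkeys in α-cells correlated at a mean of 0.034 over 24 pairs, with 3 of them over 0.1. For monkeys of other numbers the mean was -0.011 over 72 pairs, with 2 over 0.1. The difference between the 2 kinds of pairs was not tested.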

Additional observations from a re-analysis of the deposited data

Results flagged for a closer look

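In 8 of 35 groups of monkeys the highest monkey lay far from the next one by Dixon's 95% criterion. Normally distributed values of equal precision would meet this criterion by chance in about 1 of 20 groups. CPM values need not be normally distributed, their sums rested on different numbers of cells, and the groups shared monkeys. That rate therefore cannot be applied here, and whether 8 of 35 exceeds chance was not tested. No explanation was tested for any of the 8 groups.

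Young male 3 was such a monkey for GIPR in 3 types, with 14.69 CPM in young α-cells (next highest 8.64), 25.03 in young β-cells (next 7.005) and 104.3 in young δ-cells (next 19.7), and these rested on 262, 54 and 40 UMIs. Old male 4 was one for both GLP1R (6.368 CPM, next 2.35) and GCGR (79.89 CPM, next 40.7) in old β-cells, of which it had 22. GCGR in young β-cells reached 137.4 CPM in young female 3 (next 45.2). ADCY6 reached 73.96 CPM in the α-cells of old female 1 (next 47.6) and 131.1 CPM in the δ-cells of young female 2 (next 39.3), where it rested on 37 UMIs in 6 cells.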

How the results depend on the processing

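No member's difference reversed its direction under a setting that kept it past the threshold. For GLP1R between β- and α-cells, the difference was 1.32 CPM after thinning (exact permutation p = 0.0117) and from 1.21 to 1.66 CPM with each monkey left out. ADCY6 in β-cells against the other types passed only after thinning (adjusted p = 0.0434). GIPR passed between δ- and β-cells with at least 10 cells per sum (1.94, adjusted p = 0.0210) and with no monkey block (1.79, adjusted p = 0.0256), and in PP-cells against the rest with DESeq2 (1.82, adjusted p = 0.0287). PDE3B in α- and in β-cells against the rest was not called with at least 10 cells per sum (adjusted p = 0.311 and 0.564). PDE3B in PP-cells against the rest (-1.58, adjusted p = 0.0638) passed with DESeq2 (adjusted p = 0.0164) and without old female 2, old male 2 or young male 3 (from 0.0457 to 0.0492). The cause of these changes was not tested.

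The number of genes called moved by over 1.5 times as follows. At least 10 cells per sum gave 1310 for α against the rest (2735 as reported), 2172 for β (3412), 65 for PP (1091), 5142 for β minus α (3247), 48 for PP minus α (839), 386 for PP minus β (2249), 286 for PP minus δ (1355) and 2 for age in δ-cells (0). Thinning gave 1270 for δ against the rest (2014), 609 for PP, 1923 for δ minus α (2994), 699 for PP minus δ and 1 for age in PP-cells (3). DESeq2 gave 1837 for PP against the rest, 1387 for PP minus α, 2099 for PP minus δ, 25, 40 and 3 for age in α-, β- and δ-cells, 10 for age by type, and 8 and 2 for age by sex in α- and β-cells. No monkey block gave 2154 for PP against the rest, 1271 for PP minus α and 2258 for PP minus δ. A clear highest hormone gave 1 for age in β-cells (3) and 1 for age by type (0), and leaving out cells above the 95th percentile of UMIs gave 1 for age in β-cells and 1 for age by sex in β-cells (0). No filter gave 8 and no covariate 1 for age in PP-cells. With each monkey left out the counts ran from 1 to 8 for age in β-cells, 1 to 8 in PP-cells, 0 to 1 for age by type, 1 to 2 for age by sex in α-cells and 0 to 1 in β-cells.

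With the replicate number as a block, the age fits called 0 genes in α-, 3 in β-, 0 in δ- and 2 in PP-cells. With the replicate block in place of the monkey, 1732 genes were called for PP against the rest, GIPR was not called between β and α (-1.12, adjusted p = 0.0895), nor GCGR in PP against the rest (-2.16, adjusted p = 0.0642), and PDE3B in PP against the rest was (-1.77, adjusted p = 0.0155).

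Depth limits GLP1R, ADCY5 and ADCY8 in every type and all genes in δ- and PP-cells, where a sum rests on 5 to 33 cells. The clear highest hormone setting could not be run between types or for age in δ- and PP-cells, nor at least 10 cells for age in PP-cells.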
